A study of Mus musculus with 6 samples.

Results

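The genes described here are 8 genes of P-type ATPases, the membrane pumps that move ions and lipids at the expense of ATP, chosen by name from the 41388 Ensembl genes of the expression table. They are Atp2a2, Atp2b1 and Atp2c1 (calcium), Atp1b1 (sodium and potassium), Atp7b (copper), Atp8b1 and Atp11a (phospholipids) and Atp13a1 (the P5 class). All 8 were present in the table and passed the filter on low values, a mean of at least 0.5 RPKM over the libraries (reads per kilobase of exon, scaled to library size). Of the 8, 7 encode a catalytic pump. Atp1b1 does not: its product is a β subunit that accompanies one.

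RNA was sequenced from primary murine hepatocytes of C57BL/6J mice, isolated with collagenase, cultured overnight and then infected for 24 h with adenovirus at about 1000000 particles per 1000000 cells. In 3 libraries the virus carried β-galactosidase (β-gal, replicates 1, 2 and 3), which served as the control, and in 3 it carried Aloxe3, an epidermal-type lipoxygenase (replicates 7, 8 and 9). Both groups were therefore infected, and no uninfected cells were among the samples. The labels do not give the age of the mice or the promoter in the virus, nor do they say whether replicates of a group came from separate animals or cultures, so the p-values may measure a spread that is only technical.

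P-type ATPases take their name from a phosphorylated intermediate: during each transport cycle the phosphate of ATP is passed to an aspartate of the pump, which changes shape and carries its cargo across the membrane. In hepatocytes these pumps keep sodium low and potassium high in the cytosol, fill the endoplasmic reticulum (ER) and the Golgi with calcium, load copper onto ceruloplasmin and into bile, and hold phosphatidylserine on the inner side of the plasma membrane. Loss of ATP7B in humans causes Wilson disease, a copper overload of the liver, and loss of ATP8B1 causes a form of familial intrahepatic cholestasis.

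The phosphorylated aspartate is the first residue of the phosphorylation motif, 5 residues long, by which the family is recognized. The stretches of 45 bases around it are shown for 5 of the genes because they are what the pumps among them share at the level of sequence. They were read from the longest coding transcripts of GENCODE M21 (GRCm38), 5′ to 3′ on the coding strand, and capitals mark the 15 bases of the motif.
Atp2b1, chr10:98999802-98999846, plus strand, exon 10 of 21: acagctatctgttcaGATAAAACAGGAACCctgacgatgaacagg
Atp2c1, chr9:105445263-105445307, minus strand, exon 13 of 27: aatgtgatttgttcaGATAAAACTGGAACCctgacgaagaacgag
Atp7b, chr8:22004328-22004372, minus strand, exon 14 of 21: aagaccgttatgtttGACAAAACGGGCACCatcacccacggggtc
Atp11a, chr8:12831088-12831132, plus strand, exon 13 of 29: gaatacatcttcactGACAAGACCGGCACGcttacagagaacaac
Atp13a1, chr8:69798859-69798903, plus strand, exon 12 of 26: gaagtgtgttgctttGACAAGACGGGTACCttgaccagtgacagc

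Codons for the motif stood in frame in 7 of the 8 genes, Atp2a2 and Atp8b1 included. The search lets only the last base of each codon vary, so the identity of the other 10 of the 15 bases in all 7 was set in advance. The coding sequence of Atp1b1 (304 codons) did not hold the codons of the motif. Among 37 catalytic P-type ATPase genes of the mouse they were found in 36 (the exception was Atp10d, read from a transcript of 278 codons), among 15 genes of β subunits, CDC50 proteins and FXYD proteins, which accompany the pumps, in 0, and over 21504 coding genes in 44 (0.205%). The search covered the coding strand only. A match describes the letters and is no measure of pump activity.

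The libraries held 25521908 to 32431318 reads, as derived from the whole-number steps of the RPKM values. Aloxe3 itself checked the labels: it was at 2.04, 2.06 and 1.74 RPKM in the β-gal libraries and at 42.3, 45.8 and 56.3 RPKM in the Aloxe3 libraries (log2 fold change 4.05, SE 0.10, adjusted p = 4.7e-06 from limma). Replicates of each group differed by more than sampling noise, at a chi-square over genes of 3.76 to 11.0 times its degrees of freedom, and none of the 6 was merged with another. Of the hepatocyte markers, Alb was at 4362 to 4552 RPKM and Hnf4a at 25.4 to 29.3 RPKM, while Cps1 (0.915 to 1.64), Cyp2e1 (2.03 to 2.86), Tat (0.193 to 0.661) and Pck1 (0.059 to 0.106) were low. Of 10 markers used for cholangiocytes, 5 passed the filter on low values, among them Spp1 at 1431 to 1638 RPKM, Cldn4 at 522 to 642 RPKM, Krt19 at 32.9 to 51.0 RPKM and Sox9 at 38.3 to 49.3 RPKM. The 5 that did not pass (Krt7, Epcam, Cftr, Muc1 and Tspan8) were at 0.004 to 0.499 RPKM.

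The comparison asked which transcripts differed between hepatocytes overexpressing Aloxe3 and those expressing β-gal. The tool limma was applied to log2(RPKM + 1) of 12693 genes, with Benjamini-Hochberg adjustment at 0.05, and fold changes are given on that scale, which understates those of genes with low values. Of the 8 pump genes, 0 passed the threshold with limma, 0 had an unadjusted p under 0.05, and both counts were also 0 with voom on reads derived from the values. Over all tested genes limma called 0.394% (0.355% higher and 0.0394% lower), and 12.7% had an unadjusted p under 0.05 (7.31% higher and 5.42% lower), while voom called 1.37% and gave such a p to 14.5%. The adjusted p-values of the 8 genes ran from 0.501 (Atp13a1) to 0.915 (Atp1b1). Their log2 fold changes lay between -0.06 and 0.11, with 3 positive and 5 negative and a median of -0.014, beside a median of 0.005 over all tested genes.

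The 95% intervals give the size of a difference that these libraries leave possible. Across the 8 genes the intervals of the log2 fold change reached from -0.14 (Atp2c1) to 0.31 (Atp8b1), which on the scale of RPKM + 1 is a ratio between 0.907 and 1.24. To pass the threshold at its own standard error, a gene would have needed a log2 fold change of 0.22 (Atp13a1) to 0.57 (Atp8b1). A p above the threshold does not show that the levels were equal.

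**Figure D1:**
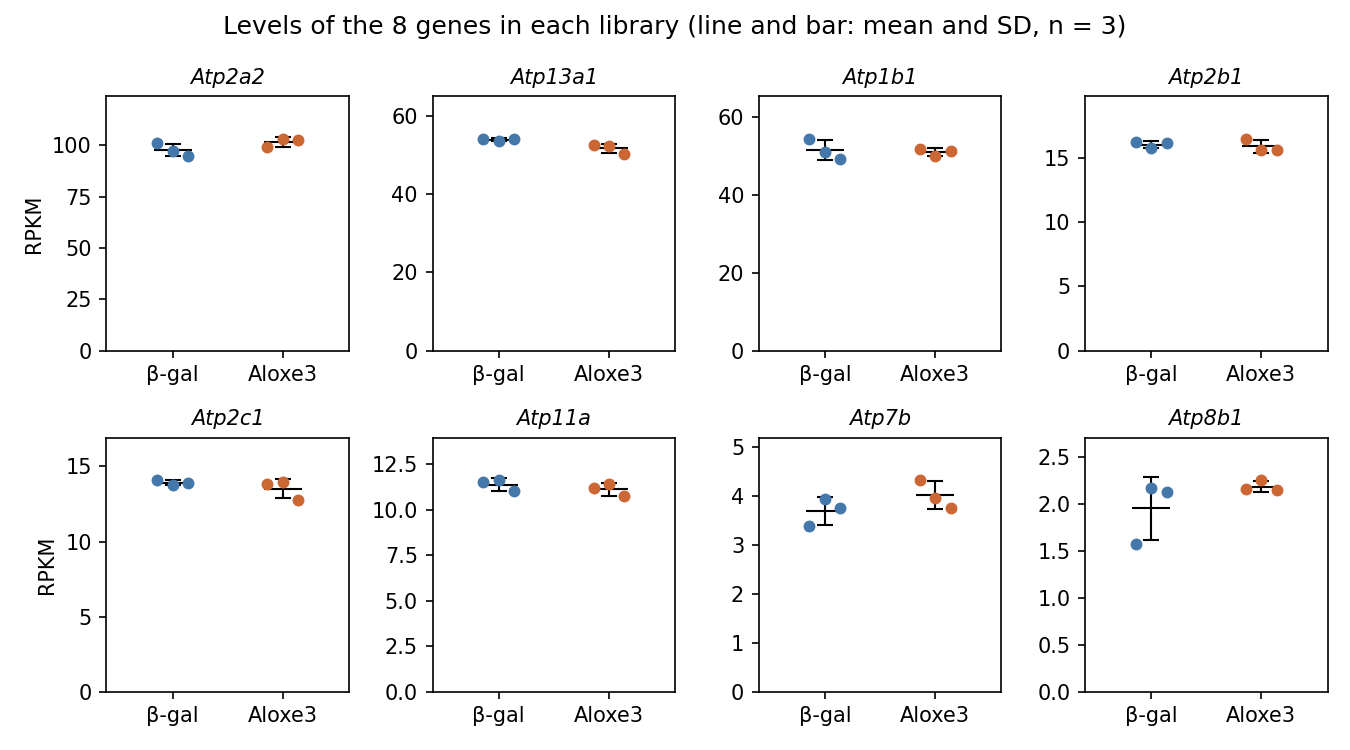
Level of each of the 8 genes in RPKM (vertical axes, each from 0 and to its own scale) in the 3 β-gal and 3 Aloxe3 libraries, with points for libraries and a line and bar for the mean and SD (n = 3). The groups overlap for 7 genes, and for Atp13a1 the 3 Aloxe3 libraries, at 50.4 to 52.4 RPKM, sit below the 3 β-gal libraries, at 53.5 to 54.1 RPKM.

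In level per exon length, with the lengths the authors used, the genes spanned from about 2 to about 100 RPKM. Atp2a2 stood first with a β-gal mean of 97.8 RPKM, above 96.4% of tested genes by its mean over all libraries. Atp13a1 (53.9) and Atp1b1 (51.6) followed, and their libraries overlapped, so these neighbours were not separated. Then came Atp2b1 (16.0), Atp2c1 (13.9), Atp11a (11.4), Atp7b (3.69) and Atp8b1 (1.96 RPKM), each with 6 libraries that did not overlap those of the next. The order by mean was the same in both groups.

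Atp2a2 (ENSMUSG00000029467, chromosome 5, 122453513 to 122502225) encodes SERCA2, the pump that returns calcium from the cytosol to the ER. It was at 101.0, 97.4 and 94.9 RPKM with β-gal and at 98.9, 103.1 and 102.7 RPKM with Aloxe3. All 3 Aloxe3 libraries were above the β-gal mean, yet the groups overlapped because β-gal replicate 1 was above Aloxe3 replicate 7. The log2 fold change was 0.05 (SE 0.04, 95% interval -0.03 to 0.14, adjusted p = 0.579 from limma), and 0.034 without β-gal replicate 3. It rested on 13358 to 17245 derived reads per library, and its SDs of 3.04 and 2.32 RPKM exceeded counting error, at a chi-square of 15.6 and 7.47 times its degrees of freedom.

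Atp2a2 was nearly the whole of the SERCA transcripts, with 99.6% to 99.8% of the summed RPKM of Atp2a1, Atp2a2 and Atp2a3. Atp2a1, the isoform of fast skeletal muscle, was at 0.189 to 0.266 RPKM and Atp2a3 at 0.013 to 0.104 RPKM. Phospholamban (Pln), which inhibits SERCA2 in the heart, was at 0.025 to 0.119 RPKM.

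Atp2b1 (ENSMUSG00000019943, chromosome 10, 98914406 to 99026143) encodes PMCA1, a calmodulin-regulated pump that expels calcium through the plasma membrane. It was at 16.2, 15.7 and 16.1 RPKM with β-gal and at 16.5, 15.6 and 15.6 RPKM with Aloxe3. Its highest and its lowest library both belonged to the Aloxe3 group (replicates 7 and 9), and the log2 fold change was -0.01 (SE 0.04, 95% interval -0.10 to 0.07, adjusted p = 0.914 from limma). With a library left out it ran from -0.038 (without Aloxe3 replicate 7) to -0.0002 (without Aloxe3 replicate 9). It held 96.7% to 97.1% of the summed RPKM of the 4 PMCA genes.

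Atp2c1 (ENSMUSG00000032570, chromosome 9, 105403539 to 105527319) encodes SPCA1, which supplies the Golgi with calcium and manganese. It was at 14.1, 13.8 and 13.9 RPKM with β-gal and at 13.8, 13.9 and 12.8 RPKM with Aloxe3. Aloxe3 replicate 9 was below the other 5 libraries, which lay within 13.8 to 14.1 RPKM. The log2 fold change was -0.04 (SE 0.04, 95% interval -0.14 to 0.06, adjusted p = 0.727 from limma). Without that replicate it was -0.004, and without Aloxe3 replicate 8 it was -0.063. Its transcripts share 17.4% of their 50-base words with Aste1, a gene on the opposite strand whose exons overlap its own. The library preparation had no step that marks strand, so reads in the overlap cannot be assigned to either gene. Apart from Atp2c1 and Atp1b1, the 8 genes share 0% to 3.93% of such words with other genes.

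Around these pumps, a list of 20 genes of ER calcium handling (channels, sensors, luminal chaperones and SERCA inhibitors) had 17 tested members. With limma 0 passed the threshold and 4 had an unadjusted p under 0.05 (3 higher and 1 lower), which is 23.5% of them beside 12.7% of all tested genes. With voom 1 passed and 4 had such a p, beside 1.37% and 14.5% of all tested genes. The median log2 fold change was 0.012, and it was -0.0007 without Aloxe3 replicate 8, -0.0014 after scaling to a common median and 0.036 without Aloxe3 replicate 9. The smallest p belonged to Hsp90b1, a chaperone of the ER lumen, at 150.3, 168.9 and 163.6 RPKM with β-gal and 185.1, 216.5 and 198.0 RPKM with Aloxe3 (log2 fold change 0.31, SE 0.07, adjusted p = 0.152). It was the gene that passed with voom (adjusted p = 0.0077), and its adjusted p reached 0.363 with no filter on low values. Next was Stim1, the sensor of ER calcium that opens store-operated channels, at 13.2 ± 0.473 RPKM (SD, n = 3) and 14.8 ± 0.378 RPKM (SD, n = 3), with a log2 difference of 0.15 ± 0.04 (SE) and an adjusted p of 0.254 from limma. In both genes every Aloxe3 library was above every β-gal library, a pattern seen in 11.2% of tested genes.

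Atp1b1 (ENSMUSG00000026576, chromosome 1, 164437109 to 164458355) encodes the β1 subunit of the sodium-potassium pump, which brings the catalytic α subunit to the plasma membrane. It was at 54.4, 51.2 and 49.3 RPKM with β-gal and at 51.9, 50.0 and 51.2 RPKM with Aloxe3. The β-gal libraries held both its highest and its lowest value and enclosed the Aloxe3 libraries. Its log2 fold change of -0.02 (SE 0.04, 95% interval -0.12 to 0.09, adjusted p = 0.915 from limma) turned to 0.02 without β-gal replicate 1, and was 4.65e-05 with quantile normalization. Of its 50-base words, 15.8% are shared with Nme7, which overlaps it on the opposite strand, and reads there cannot be assigned without strand.

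The other β subunit at an appreciable level was Atp1b3, at 57.3 to 64.5 RPKM, so that Atp1b1 held 43.9% to 47.2% of the summed RPKM of the 4 β genes.

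Of the 8 β and CDC50 genes, 3 were tested, Atp1b1, Atp1b3 and Tmem30a, and of the 7 FXYD genes, small modulators of the sodium-potassium pump, Fxyd1 and Fxyd5 were tested. In both lists 0 genes passed with limma or voom, beside 0.394% and 1.37% of all tested genes. An unadjusted p under 0.05 was reached by 0 with either, beside 12.7% and 14.5%. With so few genes tested, counts of 0 cannot be told apart from those shares. The log2 fold changes of the 4 that are not among the 8 pump genes ran from -0.02 (Atp1b3) to 0.09 (Fxyd5). Tmem30a, the CDC50 subunit that most lipid flippases need to leave the ER, was at 18.8 to 21.2 RPKM, with a log2 fold change of -0.001 ± 0.05 (SE) and an adjusted p of 0.995 from limma.

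The sodium gradient drives a set of carriers, of which 15 were listed and 13 tested. With limma 0 passed and 1 had an unadjusted p under 0.05 (7.69% of them, beside 12.7% of all tested genes). With voom the counts were 0 and 2, beside 1.37% and 14.5% of all tested genes, and the median log2 fold change was -0.02. The smallest p were those of Slc38a3, a glutamine carrier (log2 fold change 0.17, SE 0.07, adjusted p = 0.390), and Slc20a2, a phosphate carrier (log2 fold change -0.11, SE 0.05, adjusted p = 0.446).

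Atp7b (ENSMUSG00000006567, chromosome 8, 21992785 to 22060305) encodes the copper pump of hepatocytes, which loads copper onto ceruloplasmin in the Golgi and exports the excess toward bile. It was at 3.39, 3.94 and 3.75 RPKM with β-gal and at 4.33, 3.97 and 3.77 RPKM with Aloxe3. All 3 Aloxe3 libraries were above the β-gal mean of 3.69 RPKM, and Aloxe3 replicate 9, the lowest of them, was below β-gal replicate 2. The log2 fold change was 0.10 (SE 0.06, 95% interval -0.05 to 0.25, adjusted p = 0.559 from limma), and leaving out β-gal replicate 1 gave 0.05 and leaving out Aloxe3 replicate 7 gave 0.055. It rested on 648 to 832 reads per library, and its CVs of 7.65% and 7.06% exceeded the counting CVs of 3.64% and 3.73%.

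The paralog Atp7a, the copper pump of most other tissues, was at 2.21 to 2.52 RPKM with a log2 fold change of -0.04 ± 0.05 (SE) and an adjusted p of 0.788 from limma. Per RPKM of Atp7a there were 1.53 ± 0.166 RPKM of Atp7b with β-gal (SD, n = 3) and 1.73 ± 0.131 RPKM with Aloxe3 (SD, n = 3), and the groups overlapped (exact permutation test, two-sided p = 0.2).

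In a list of 13 genes of copper handling, all tested, 1 passed the threshold with limma and 2 with voom, beside 0.394% and 1.37% of all tested genes. An unadjusted p under 0.05 was reached by 3 with limma, all higher, which is 23.1% of the list beside 12.7% of all tested genes (7.31% higher). With voom 4 had such a p, beside 14.5% of all tested genes. The groups did not overlap for 38.5% of the list (3 higher and 2 lower), beside 19.9% of all tested genes. The 2 lower were Ccs (log2 fold change -0.13, adjusted p = 0.411 from limma) and Sod1 (-0.09, adjusted p = 0.451). The median log2 fold change was -0.010, a value whose sign was not stable: it was 0.035 without Aloxe3 replicate 9, 0.017 without β-gal replicate 3, 0.009 without β-gal replicate 2 and 0.004 with quantile normalization, and it reached -0.041 without Aloxe3 replicate 8. The gene past the threshold was Steap4, a metalloreductase that reduces iron and copper for uptake, at 29.8, 32.8 and 32.2 RPKM with β-gal and 40.0, 42.3 and 38.5 RPKM with Aloxe3 (log2 fold change 0.34, SE 0.05, adjusted p = 0.0498). The groups did not overlap, but the adjusted p lay just under the threshold, and it was 0.0796 to 0.149 when a library was left out and 0.00144 (voom) to 0.186 (no filter on low values) over all alternatives. Ceruloplasmin (Cp), the plasma protein that receives copper from Atp7b, was at 152.1, 167.3 and 174.7 RPKM with β-gal and 202.3, 202.2 and 182.3 RPKM with Aloxe3 (log2 fold change 0.25, SE 0.06, adjusted p = 0.237). The groups did not overlap, and Cp was the other gene that passed with voom (adjusted p = 0.0255, and up to 0.497 over the alternatives). Atox1, the chaperone that hands copper to Atp7b, was at 267 to 299 RPKM (log2 fold change -0.03, SE 0.05, adjusted p = 0.847). Slc31a1, the copper importer, was at 20.8 to 23.8 RPKM (log2 fold change -0.01, SE 0.06, adjusted p = 0.960).

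Atp8b1 (ENSMUSG00000039529, chromosome 18, 64528967 to 64661267) encodes a flippase of the canalicular membrane, the face of the hepatocyte toward bile. It was at 1.57, 2.17 and 2.13 RPKM with β-gal and at 2.16, 2.26 and 2.15 RPKM with Aloxe3. β-gal replicate 1 stood below the other 5 libraries, which lay within 2.13 to 2.26 RPKM and overlapped between groups, and it gave the β-gal group a CV of 17.0%, against 2.72% in the Aloxe3 group and counting CVs of 5.03% and 5.08%. The log2 fold change was 0.11 (SE 0.09, 95% interval -0.08 to 0.31, adjusted p = 0.603 from limma), and without that replicate it was 0.02. It rested on 327 to 453 derived reads per library, known up to a common factor because the exon length had to be searched for.

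Atp11a (ENSMUSG00000031441, chromosome 8, 12757014 to 12868728) encodes a flippase of the plasma membrane that moves phosphatidylserine to the inner leaflet. It was at 11.5, 11.6 and 11.0 RPKM with β-gal and at 11.2, 11.4 and 10.7 RPKM with Aloxe3. The groups overlapped, with a log2 fold change of -0.03 (SE 0.04, 95% interval -0.13 to 0.06, adjusted p = 0.789 from limma). With a library left out it ran from -0.054 (without β-gal replicate 3) to -0.009 (without Aloxe3 replicate 9).

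**Figure D2:**
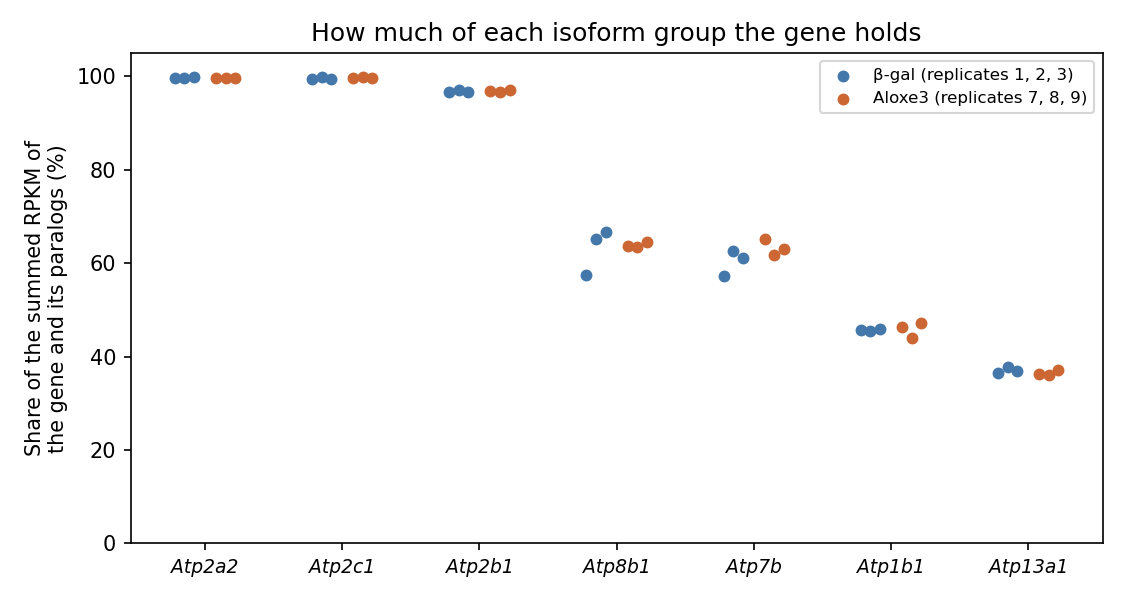
Share of 7 of the genes in the summed RPKM of itself and its paralogs, in percent (vertical axis), with 1 point per library in the β-gal and Aloxe3 groups. Atp2a2, Atp2c1 and Atp2b1 hold over 96% of their groups in every library, Atp8b1 and Atp7b 57.3% to 66.6%, and Atp1b1 and Atp13a1 36.0% to 47.2%.

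The canalicular exporters, which place bile acids, phospholipids and conjugates into bile beside Atp8b1, were listed as 8 genes and all tested. With limma 0 passed and 1 had an unadjusted p under 0.05 (12.5% of them, beside 12.7% of all tested genes). With voom 1 passed and 2 had such a p, beside 1.37% and 14.5% of all tested genes, and the median log2 fold change was 0.032. The smallest p belonged to Abcb4, the phosphatidylcholine floppase of bile, at 2.78, 2.82 and 2.83 RPKM with β-gal and 4.30, 3.56 and 4.10 RPKM with Aloxe3. The groups did not overlap, and the log2 difference was 0.39 ± 0.06 (SE). Its adjusted p from limma was 0.0657, and over the alternatives it ran from 0.00487 (voom) to 0.268. Abcc2, which exports conjugated bilirubin, followed at 47.6 ± 2.21 and 51.3 ± 3.32 RPKM (SD, n = 3 each), with overlapping groups, a log2 fold change of 0.10 ± 0.06 (SE) and an adjusted p of 0.487 from limma. With a library left out the fold change of Abcc2 ran from 0.070 (without Aloxe3 replicate 7) to 0.158 (without Aloxe3 replicate 9).

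Atp13a1 (ENSMUSG00000031862, chromosome 8, 69791163 to 69807749) encodes the P5A pump of the ER, which removes misinserted transmembrane segments of proteins from that membrane. It was at 54.1, 53.5 and 54.1 RPKM with β-gal and at 52.4, 52.2 and 50.4 RPKM with Aloxe3. Among the 8 genes it was the 1 whose groups did not overlap, with every Aloxe3 library below every β-gal library, a pattern seen in 8.71% of tested genes and in 19.9% counting both directions. The log2 fold change was -0.06 (SE 0.03, 95% interval -0.14 to 0.02, adjusted p = 0.501 from limma), and the exact permutation test gave a two-sided p of 0.1, the smallest possible here. Its β-gal SD of 0.361 RPKM was the smallest relative to the mean, a CV of 0.671% with a counting CV of 1.23%.

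Among the P5 genes Atp13a1 held 36.0% to 37.7% of the summed RPKM. Atp13a3, a polyamine transporter of endosomes, was higher, at 72.7 to 79.9 RPKM, while Atp13a2, a lysosomal polyamine exporter, was at 7.30 to 8.91 RPKM and Atp13a4 at 4.74 to 5.98 RPKM. The log2 fold changes of these 3 were -0.02 (Atp13a3), -0.10 (Atp13a2) and 0.09 (Atp13a4), with adjusted p of 0.848, 0.517 and 0.587.

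Of the other catalytic genes of the family, 10 that passed the filter on low values were followed, namely Atp7a, Atp8a1, Atp8b2, Atp9a, Atp9b, Atp10a, Atp11b, Atp13a2, Atp13a3 and Atp13a4. With limma and with voom 0 of the 10 passed, and 1 had an unadjusted p under 0.05 with limma and 2 with voom. Their log2 fold changes ran from -0.15 to 0.12, with 4 positive and 6 negative. The gene with an unadjusted p under 0.05 in limma was Atp9a, a flippase-like protein of endosomes, at 27.6, 26.8 and 27.2 RPKM with β-gal and 26.3, 23.7 and 23.2 RPKM with Aloxe3 (log2 fold change -0.15, SE 0.05, adjusted p = 0.300).

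The groups did not overlap for 3 of these 10 genes, Atp9a and Atp9b lower and Atp8b2 higher, and overlapped for the other 7. Over the whole list of 37 catalytic genes, members counted, 20 were tested and 6 did not overlap (2 higher and 4 lower), beside 19.9% of all tested genes (11.2% higher and 8.71% lower). Of the 20, 0 passed with limma or voom, 2 had an unadjusted p under 0.05 with limma and 3 with voom (beside 12.7% and 14.5% of all tested genes), and the median log2 fold change was -0.019. With a library left out that median ran from -0.041 (without Aloxe3 replicate 8) to -0.002 (without Aloxe3 replicate 9). It was -0.0014 with no filter on low values.

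**Figure D3:**
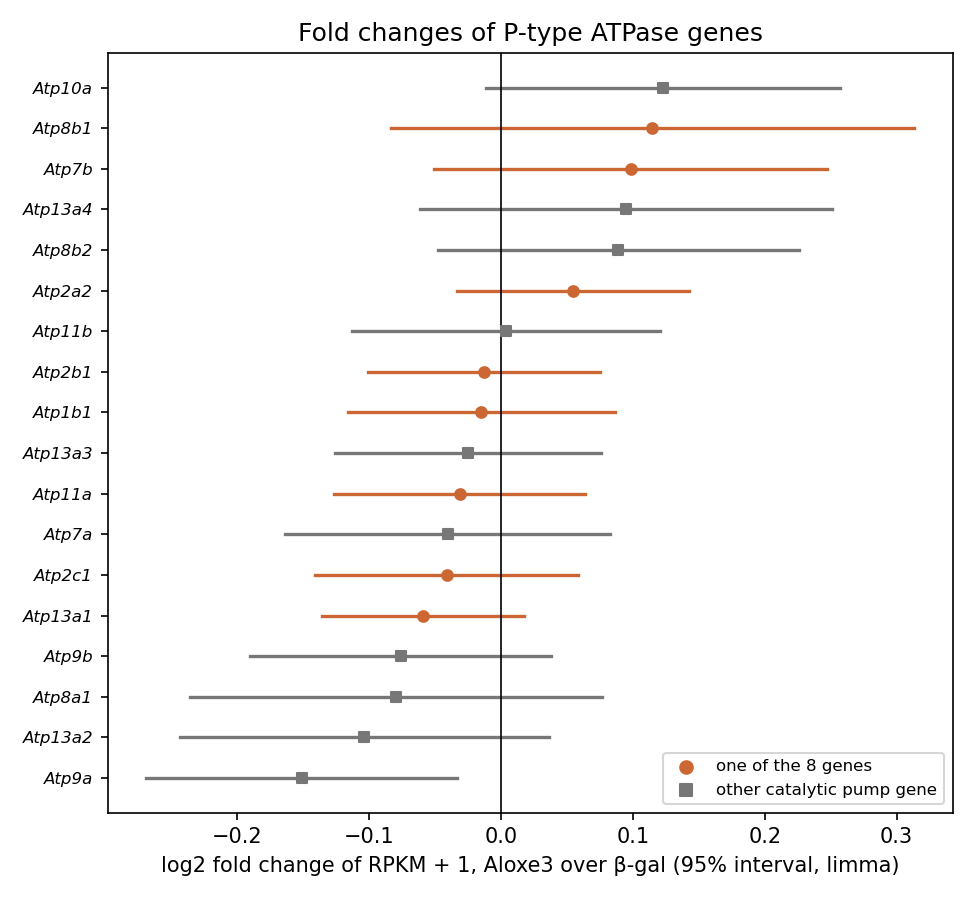
Log2 fold change of RPKM + 1, Aloxe3 over β-gal (horizontal axis), with its 95% interval from limma, for 18 genes. Circles mark the 8 genes described here and squares 10 other catalytic genes, and the intervals of all 8 include 0, while that of Atp9a does not.

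Among libraries the 8 genes shared few patterns. Aloxe3 replicate 9 was the lowest library for 4 of them (Atp2b1, Atp2c1, Atp11a and Atp13a1), and β-gal replicate 1 was the highest for 3 and the lowest for 2. The median deviation of the 8 genes from the β-gal mean, on the log2 scale, was 0.013, 0.004 and -0.025 in Aloxe3 replicates 7, 8 and 9, beside 0.010, 0.015 and -0.012 over all tested genes. The 7 catalytic members together made up 30.3%, 30.1% and 30.0% of the summed RPKM of the 37 catalytic genes with β-gal and 30.4%, 31.3% and 31.2% with Aloxe3.

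**Figure D4:**
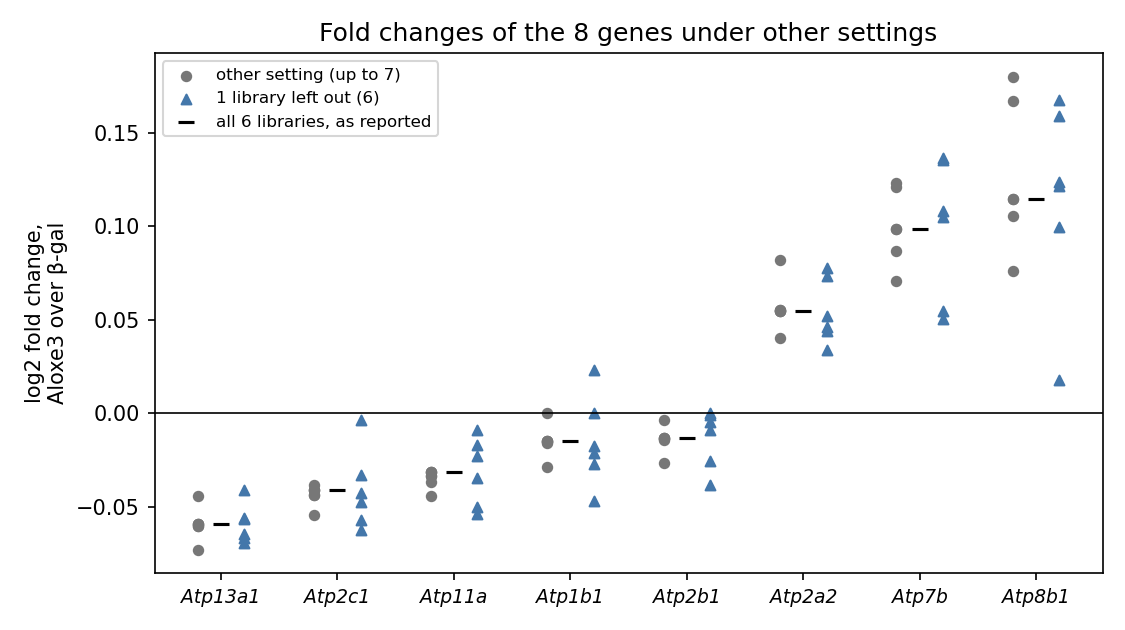
Log2 fold change of each of the 8 genes, Aloxe3 over β-gal (vertical axis), as reported (bar), under other processing settings (circles) and with each library left out (triangles). Signs are kept in 100 of 102 values, among them those with another filter or without trend, where the fold change stays as reported and could not turn. The points of Atp8b1 reach from 0.02 to 0.18.

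Markers of other liver cells were followed as lists of 10 genes each. The summed RPKM of Kupffer cell markers was 160.0 to 166.3 with β-gal and 140.8 to 155.3 with Aloxe3, without overlap and most of it Cd68 (log2 fold change -0.15, SE 0.04, adjusted p = 0.262 from limma), while Clec4f, which defines these cells, was at 0.025 to 0.095 RPKM. Cd5l, a protein secreted by macrophages, was at 0.355 to 1.16 RPKM, with overlapping groups. Endothelial markers summed to 62.1 to 69.9 and 62.1 to 69.0, and the scavenger receptors Stab1 (6.42 to 7.52 RPKM) and Stab2 (2.71 to 3.35 RPKM) overlapped between groups. Stellate markers summed to 7.19 to 7.95 and 6.48 to 7.57, with Lrat at 0 in every library. Of these, Tagln (3.17 to 3.97 RPKM) overlapped, and Acta2, the actin of smooth muscle, was at 0.992 to 1.06 RPKM with β-gal and 0.794 to 0.935 RPKM with Aloxe3 (adjusted p = 0.540 from limma).

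Cholangiocyte markers summed to 2170 to 2215 and 2119 to 2281, and the most abundant of them differed in sign. Cldn4, a tight junction protein, was at 635, 642 and 605 RPKM with β-gal and 547, 556 and 522 RPKM with Aloxe3 (log2 fold change -0.21, SE 0.04, adjusted p = 0.138), without overlap and with an adjusted p of 0.0126 from voom. For Spp1 the log2 difference was 0.11 ± 0.05 (SE), with overlapping groups and an adjusted p of 0.433 from limma. Hepatocyte markers summed to 4961 to 5007 and 4788 to 4933 RPKM, without overlap and most of it Alb. With limma 1 of them, Ttr, was lower past the threshold (log2 fold change -0.30, SE 0.04, adjusted p = 0.0448). Over all tested genes 0.394% passed (0.0394% lower). The call of Ttr was lost with each library left out in turn (adjusted p of 0.0802 to 0.148). Over all alternatives its adjusted p spanned 0.00188 (voom) to 0.164 (no filter on low values). With limma 50% of the markers tested had an unadjusted p under 0.05 (1 higher and 3 lower), beside 12.7% of all tested genes. Groups did not overlap for 50% (1 higher and 3 lower), beside 19.9% of all tested genes. The lower ones included Apoa1 (log2 fold change -0.10, adjusted p = 0.349) and Serpina1a (-0.11, adjusted p = 0.262). Of the 8 hepatocyte markers tested, 5 log2 fold changes were negative and 3 positive, and Cps1 was at 0.33 ± 0.07 (SE) with an adjusted p of 0.161 from limma, every Aloxe3 library above every β-gal library. In cell populations such as these, fewer cells of a type and less RNA per cell cannot be told apart, and the part of the markers in the values of the pump genes was not tested.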

How the data were processed

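The authors sequenced poly-A RNA as single reads of 50 bases, aligned them to Ensembl release 76 (GRCm38.p2) with STAR 2.0.4b, assigned reads to genes with featureCounts 1.4.5 where they aligned uniquely and without ambiguity, and deposited RPKM values for 41388 genes. How counts became RPKM is not given in the sources used here. Groups follow the sample titles. The 8 genes and the 17 lists around them were chosen with earlier results of these data known. Symbols and coordinates come from GENCODE M21.

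After adding 1 RPKM and taking log2, genes averaging 0.5 RPKM or more (12693) were compared in R 4.3.3 with limma 3.58.1 (lmFit, then eBayes with trend, two-sided, Benjamini-Hochberg adjustment at 0.05). Exact permutation tests used scipy 1.17.1. Library sizes (25521908 to 32431318 reads) and reads per gene were derived from the whole-number steps of the RPKM values, and the reads add up to 99.93% of each library. For 8573 genes the annotated exon length gave no whole reads and the smallest length that does was used, so their reads are known up to a common factor. These include 5 of the 8 genes, Atp1b1, Atp2a2, Atp2b1, Atp2c1 and Atp8b1, whose reads, counting CVs and chi-squares rest on that smallest length. Counting CVs cover counting error only.

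Named genes were the 8 members, Aloxe3, the other tested catalytic pump genes (some are not reported here), and in each other list the 2 tested genes with the smallest p that are not members. Others were chosen after their values were seen. Shared sequence was counted as 50-base words also found, on either strand, in transcripts of other genes. The fit was tested on simulated reads. Alternatives were quantile normalization, scaling to a common median, a pseudocount of 0.1, no filter, a stricter filter (mean of 5 RPKM), eBayes without trend, voom on derived reads, and each library left out.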

Additional observations from a re-analysis of the deposited data

How the results depend on the processing

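Of 102 log2 fold changes of the 8 genes under the alternatives, 100 kept their sign and 0 passed the threshold (adjusted p from 0.333 to 0.9997). The 102 include eBayes without trend, no filter and the stricter filter. These change the p-values but not the fold change of a gene, so its sign could not turn there. Atp1b1 turned positive with quantile normalization (4.65e-05) and without β-gal replicate 1, and with a library left out it ran from -0.047 to 0.023. Under the stricter filter, at 5 RPKM, Atp7b and Atp8b1 were not tested. The count over all genes was 50, and it was 7 with no filter, 174 with voom and 6 to 19 with a library left out. For copper handling the count of 1 fell to 0 with eBayes without trend, no filter, a pseudocount of 0.1 RPKM and each library left out (0 to 0), and was 2 with voom. With voom it was 1 for ER calcium handling and 1 for canalicular transporters. The median log2 fold change of canalicular transporters ran from 0.0049 to 0.073 with a library left out, and that of sodium-driven transporters from -0.028 to 0.0022, and was 0.00090 with no filter. With a library left out the median of copper handling ran from -0.041 to 0.035 and that of ER calcium handling from -0.0007 to 0.036. The cause of these shifts was not tested. No paired analysis was possible because the groups share no replicate numbers. Atp8b1 rested on 327 to 453 derived reads per library, known up to a common factor.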
